A study of Mus musculus with 6 samples.

Results

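The 10 genes described here make, lengthen and desaturate fatty acids from carbohydrate-derived carbon, or switch that pathway on: Srebf1, Thrsp, Acly, Me1, Acaca, Acacb, Fasn, Elovl6, Scd1 and Scd2. They were chosen by name from the pathway. A probe (the spotted sequence that reports a transcript) was taken as a member when its RefSeq accession belonged to one of these genes, which gave 16 probes for 10 of the 23460 genes and unnamed transcripts measured. RNA labelled as mammary gland was measured on 6 arrays, 1 per female Trp53 knockout mouse aged 8 weeks. From 3 weeks of age, for 5 weeks, 3 of these mice ate a high-fat diet (HFD) and 3 a control diet (CD). Both groups carried the Trp53 knockout, so the arrays hold no mice with intact Trp53. The labels give neither the fat content nor the make of either diet. They call the replicates biological, and describe the source as glands in one field and as epithelial cells in another.

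In this pathway citrate leaves the mitochondrion and is split by ATP citrate lyase (Acly) into acetyl-CoA, which the acetyl-CoA carboxylases (Acaca, Acacb) turn into malonyl-CoA. Fatty acid synthase (Fasn) joins these units into palmitate with NADPH that malic enzyme (Me1) helps to supply. Elovl6 lengthens palmitate, and the stearoyl-CoA desaturases (Scd1, Scd2) insert a double bond. Srebf1 encodes SREBP-1, the transcription factor through which insulin and feeding raise these enzymes, and Thrsp encodes Spot 14, a small protein induced with them. Both fat cells and milk-producing epithelium run the pathway, and some kinds of dietary fat are known to lower it in liver.

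No member differed between the diets past the test. Levels below are log2 signal relative to each array's 75th percentile of signal, and differences are HFD minus CD on that log2 scale, with n = 3 mice per diet throughout. All 16 probes were bright enough to be tested, and 15 were well above background on all 6 arrays; the dimmer Acacb probe was so on 5. With limma and Benjamini-Hochberg adjustment over 28689 probes, 0 of 16 reached an adjusted p under 0.05, against 0.0174% of all probes, and the adjusted p-values ran from 0.363 to 0.919. At an unadjusted p under 0.05, 1 of 16 passed, the brighter Acacb probe, which was lower on HFD, against 13.7% of all probes and 6.99% on the lower side. The diets did not overlap for 1 of 16, Srebf1, which was lower on HFD, against 17.4% of all probes and 8.22% on the lower side. Of the 16 differences, 8 were above 0 and 8 below, where 51.2% of all probes were above, and 13 were smaller than 0.25 in size. The median over the 10 genes, each by its brightest probe, was -0.07, beside -0.01 over all genes. A difference of 0 is not shown by this: the 95% half-widths ran from 0.26 to 0.75, and 13 of the 16 intervals lay within 1 log2 unit of 0, which is 2-fold. For a single value, 3 mice on each diet allow no exact permutation p below 0.10.

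**Figure D1:**
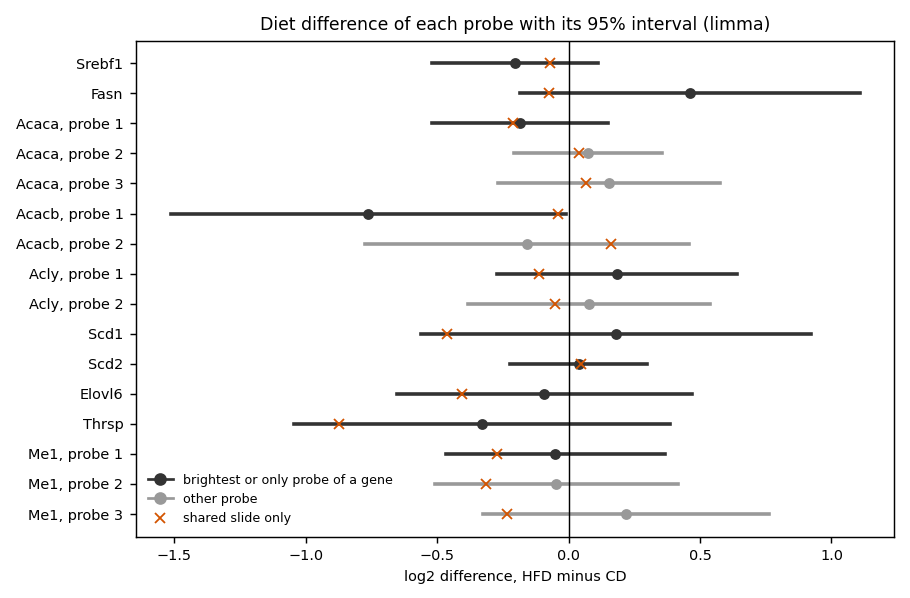
Difference between the diets (HFD minus CD, log2) for each of the 16 probes, with the 95% interval from limma over 6 arrays; black marks the brightest or only probe of a gene and grey its other probes. Crosses give the difference on the 1 slide that held both diets, and only the interval of the brighter Acacb probe leaves out 0.

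Promoters of 4 of the genes are shown, since the results below turn on them most: Fasn and Acacb differed most between diets in either direction, and Acly and Elovl6 shared part of the Fasn pattern across arrays. Each run is the 250 bases before an annotated start, 5′ to 3′ on the gene's strand, from RefSeq on GRCm38.p6; the array itself was annotated on an older build. Capitals mark matches on either strand to CCAAT (the CCAAT box, bound by NF-Y) or GGGCGG (the GC box, bound by SP1 family factors).
Fasn, chr11:120824548-120824797, minus strand: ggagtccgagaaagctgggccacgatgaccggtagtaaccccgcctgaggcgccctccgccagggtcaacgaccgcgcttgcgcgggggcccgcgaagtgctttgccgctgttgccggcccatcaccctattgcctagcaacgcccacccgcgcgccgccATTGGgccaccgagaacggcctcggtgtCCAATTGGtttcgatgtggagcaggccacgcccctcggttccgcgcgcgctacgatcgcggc
Acly, chr11:100528001-100528250, minus strand: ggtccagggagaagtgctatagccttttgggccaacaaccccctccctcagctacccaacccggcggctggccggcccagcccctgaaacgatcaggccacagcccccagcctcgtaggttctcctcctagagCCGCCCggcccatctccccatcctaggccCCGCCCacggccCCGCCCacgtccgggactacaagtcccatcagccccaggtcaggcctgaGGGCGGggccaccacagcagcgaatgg
Elovl6, chr3:129532136-129532385, plus strand: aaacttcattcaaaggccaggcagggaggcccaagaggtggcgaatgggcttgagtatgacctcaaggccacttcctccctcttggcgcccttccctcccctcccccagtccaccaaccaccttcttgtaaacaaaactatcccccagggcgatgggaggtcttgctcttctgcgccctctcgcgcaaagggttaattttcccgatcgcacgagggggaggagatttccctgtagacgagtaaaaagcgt
Acacb, chr5:114165268-114165517, plus strand: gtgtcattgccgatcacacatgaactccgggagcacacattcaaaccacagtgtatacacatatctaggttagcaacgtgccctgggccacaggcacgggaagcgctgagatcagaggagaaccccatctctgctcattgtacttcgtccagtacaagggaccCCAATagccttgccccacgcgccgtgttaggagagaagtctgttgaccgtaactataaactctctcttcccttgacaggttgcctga
The Fasn window held 3 CCAAT matches, which begin 90, 62 and 59 bases before the start, and the last 2 overlap on opposite strands. In the Acly window 4 GC boxes were found, in the Acacb window 1 CCAAT box, and in the Elovl6 window neither motif. Over all 32817 windows of this length, 33.8% held CCAAT and 32.7% GGGCGG. The search took in 2 other motifs as well, again on both strands, TCACNCCAC (a sterol regulatory element, bound by SREBP) and CACGTG (the E-box, bound by USF). Neither lay in any of the 11 windows found for 8 of the 10 genes, and 1.05% and 6.02% of all windows held them. Those letters are only absent from these windows, and no match is a measured site.

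Facts of the whole set of arrays bear on what follows. The 75th percentile of signal ran from 1323 to 1970 intensity units, between 27249 and 29462 of 39429 probes were well above background on an array, and no probe was saturated. Across all probes 5 passed an adjusted p of 0.05, each lower on HFD. The arrays lay on 3 slides, and slide 2 alone held both diets (HFD replicates 2 and 3 with CD replicate 1); slide 1 held HFD replicate 1 and slide 3 held CD replicates 2 and 3. Of the marker lists, 18 of 20 luminal epithelial genes were above 0 in their difference (mean level 0.72 to 1.70 on HFD, 0.44 to 1.05 on CD), as were 14 of 14 basal and myoepithelial genes (2.83 to 3.04 against 2.00 to 2.36). Below 0 were 11 of 14 fibroblast and matrix genes (3.79 to 4.88 against 4.34 to 5.20) and 9 of 13 skeletal muscle genes (-3.77 to -3.55 against -2.83 to -2.42). Endothelial genes were above 0 for 7 of 10, macrophage genes for 4 of 8 and milk genes for 5 of 7. In such samples fewer cells of a type and less RNA per cell cannot be told apart.

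Glands are the labelled source, and the markers of fat cells ranged from near the detection limit to well clear of it. Adipoq (adiponectin), a hormone made by fat cells, had levels of -6.21, -5.74 and -5.88 on HFD replicates 1 to 3 and -7.33, -6.65 and -6.98 on CD replicates 1 to 3. The lowest signal called well above background lay between -7.87 and -6.83 on these arrays, so Adipoq stood only 0.54 to 1.50 above it on the same array, and on 5 of 6 arrays it was called detected. Plin1, the coat protein of lipid droplets, stood 0.54 to 1.75 above that limit, and Lep (leptin) 0.80 to 2.05. The milk proteins Csn2, Csn3 and Csn1s2a were well above background on 0 arrays. Other milk genes were so on all 3 arrays of each diet. Among these were Csn1s2b, another casein, at -5.90 to -5.07, Lalba at -3.03 to -2.69, and Btn1a1, Ltf and Lcn2. Over the 18 white adipocyte markers, 12 differences were above 0 and 6 below, with a median of 0.18; 4 passed an unadjusted p of 0.05 on the higher side and 1 on the lower, beside 5.89% and 7.5% of all genes. Their mean level ran from -3.48 to -3.15 on HFD and from -3.89 to -3.42 on CD. The 3 markers of highest level were Pnpla2, Fabp4 and Lpl, with differences of -0.05, 0.12 and -0.56. A second Lpl probe gave -0.16. Other fat cell markers stood clear of the limit on every array: Cfd (adipsin) by 2.27 to 4.36, Plin4 by 2.53 to 3.00, Lipe, the hormone-sensitive lipase, by 1.78 to 3.11, Pparg by 4.73 to 6.90 and Fabp4 by 7.83 to 9.38. With the mean of the 14 adipocyte markers in no pathway list as a covariate, the median over the 10 members was 0.17 and 0 members passed an adjusted p of 0.05. Fasn then differed by 0.99 ± 0.31 (SE; limma adjusted p = 0.127) and the brighter Acacb probe by -1.47 ± 0.29 (SE; limma adjusted p = 0.083). The brown adipocyte list ran the other way from the white one. All 9 of its measured genes were below 0, with a median of -0.80 and mean levels of -4.83 to -4.52 on HFD and -4.08 to -3.48 on CD. Of the list, 5 had an unadjusted p under 0.05 on the lower side and 0 on the higher, beside 7.5% and 5.89% of all genes. Ucp1, its defining uncoupling protein, was well above background on 4 of 6 arrays, 1 on HFD and 3 on CD. Otop1 was so on 1 HFD and 3 CD arrays, and Prdm16 on 2 and 3. For these genes the 3 CD arrays alone met the detection filter, so their sign is not independent of it. A second kept probe gave 0.11 for Otop1 and -0.09 for Zic1. The skeletal muscle list was also mostly below 0, for 9 of 13 genes, with a median of -1.02. The part of muscle in the brown adipocyte values was not tested. Nor was the part of these brown adipocyte genes in the members' values.

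**Figure D2:**
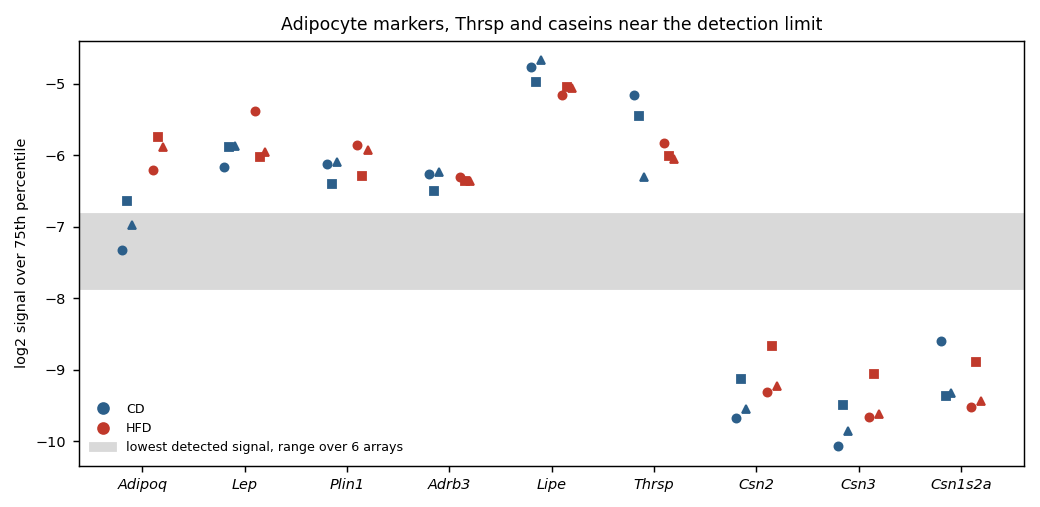
Level of adipocyte markers, Thrsp and milk caseins on each array (log2 signal over the 75th percentile; blue CD, red HFD; circle, square and triangle are replicates 1 to 3), with the lowest detected signal of the 6 arrays as a grey band from -7.87 to -6.83. Adipoq, Lep, Plin1 and Adrb3 lie in or just above the band, and the 3 caseins below it.

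The 2 members that control the pathway were both somewhat lower on HFD, neither past the test. Srebf1 (NM_011480) read -2.47, -2.15 and -2.24 on HFD and -2.12, -2.04 and -2.08 on CD. Every HFD array lay below every CD array, by a gap of only 0.03 between HFD replicate 2 and CD replicate 1, and HFD replicate 1 was the lowest array. The difference was -0.20 ± 0.13 (SE, 95% interval -0.52 to 0.11; limma adjusted p = 0.485), a fold of 0.868, and it was -0.11 without HFD replicate 1. Thrsp (NM_009381) read -5.83, -6.01 and -6.05 on HFD and -5.15, -5.45 and -6.30 on CD. The HFD values sat close together, inside the wide spread of the CD values, whose lowest array was below all 3 HFD arrays. Its difference was -0.33 ± 0.30 (SE, 95% interval -1.04 to 0.39; limma adjusted p = 0.604). Thrsp was dim, 0.82 to 2.72 above the lowest detected signal of the array, and with a normexp background and 75th-percentile scaling its difference turned to 0.64 and that of Srebf1 to 0.11, where the median of all genes moved to 0.27. With normexp and quantile normalization both stayed below 0, at -0.078 for Thrsp and -0.15 for Srebf1. On slide 2, the 2 HFD arrays lay 0.85 and 0.89 below CD replicate 1 for Thrsp.

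Of the enzymes that supply the substrates, neither moved beyond its spread. The brighter probe of Acly (NM_001199296), at the point where citrate becomes acetyl-CoA, read 5.09, 5.17 and 4.74 on HFD and 5.07, 4.55 and 4.82 on CD. The top 3 arrays were HFD replicates 1 and 2 and CD replicate 1, so both diets held high and low arrays. The difference was 0.18 ± 0.19 (SE, 95% interval -0.27 to 0.64; limma adjusted p = 0.647), and on slide 2 it was -0.11. The second Acly probe (NM_134037), far dimmer with an HFD mean of -3.20 beside 5.00, gave 0.08 ± 0.19. Me1 (NM_001198933), the cytosolic malic enzyme, was read by 3 probes that differed in sign, at -0.05 ± 0.17, -0.05 ± 0.19 and 0.22 ± 0.23 (SE). Its brightest probe read 2.29, 2.41 and 2.05 on HFD and 2.50, 2.05 and 2.36 on CD. The diets covered nearly the same range, from 2.05 to 2.41 on HFD and from 2.05 to 2.50 on CD.

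Neither carboxylase passed the test, and Acacb had the lowest difference of the 16 probes. Acaca (NM_133360), the cytosolic carboxylase that feeds fatty acid synthase, read 3.12, 3.09 and 2.95 on HFD and 3.23, 3.06 and 3.42 on CD by its brightest probe. CD replicate 2 lay among the HFD arrays, and the difference was -0.18 ± 0.14 (SE, 95% interval -0.52 to 0.15; limma adjusted p = 0.539). The other 2 Acaca probes were far dimmer, with HFD means of -4.06 and -4.75 beside 3.05 for the brightest. They gave 0.07 ± 0.12 and 0.15 ± 0.18 (SE), so the sign of Acaca depended on the probe. Acacb (NM_133904) encodes the carboxylase at the mitochondrial surface, whose malonyl-CoA restrains fatty acid oxidation in muscle and liver. Its brighter probe read -3.41, -3.38 and -2.76 on HFD and -3.03, -2.11 and -2.13 on CD. CD replicates 2 and 3 were the highest arrays, and CD replicate 1 lay between HFD replicates 2 and 3, so the diets overlapped. The difference was -0.76 ± 0.31 (SE, 95% interval -1.51 to -0.01; unadjusted p = 0.048, limma adjusted p = 0.363), a fold of 0.590 with an interval of 0.350 to 0.992. The dimmer Acacb probe gave -0.16 ± 0.26 (SE). On slide 2 the brighter probe differed by -0.04, with HFD replicate 2 0.35 below and HFD replicate 3 0.27 above CD replicate 1. Without HFD replicate 1, HFD replicate 2, CD replicate 2 or CD replicate 3 the unadjusted p was between 0.121 and 0.138; without CD replicate 1 the difference was -1.07 and without HFD replicate 3 it was -0.97. The mean of the 14 fibroblast and matrix genes was likewise lowest on HFD replicates 1 and 2 and highest on CD replicates 2 and 3, at 3.79, 3.82 and 4.88 on HFD and 4.34, 5.19 and 5.20 on CD, and the part of these genes in the Acacb value was not tested. With the luminal mean as a covariate the brighter Acacb probe differed by -0.17 ± 0.23 (SE), and with normexp and 75th-percentile scaling by -0.19 ± 0.52.

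Fasn (NM_007988), the synthase itself, had the highest difference of the 16 probes, which did not pass the test. It read -0.34, -0.51 and -1.14 on HFD and -0.75, -1.41 and -1.21 on CD. HFD replicates 1 and 2 were the 2 highest arrays, but HFD replicate 3 lay below CD replicate 1 and next to CD replicate 3. The difference was 0.46 ± 0.27 (SE, 95% interval -0.18 to 1.11; limma adjusted p = 0.449), a fold of 1.38 with an interval of 0.880 to 2.16. On slide 2, HFD replicate 2 stood 0.24 above and HFD replicate 3 0.39 below CD replicate 1, a mean of -0.07. With HFD replicate 3 left out the difference was 0.70 (unadjusted p = 0.025, limma adjusted p = 0.193), and without HFD replicate 1 it was 0.30. The luminal epithelial list had means of 1.54, 1.70 and 0.72 on HFD and 1.05, 0.59 and 0.44 on CD. With that mean as a covariate the Fasn difference was -0.04 ± 0.20 (SE), and the luminal list in turn holds 18 of 20 genes above 0 on HFD, so the diet and the luminal level cannot be told apart in 6 arrays.

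**Figure D3:**
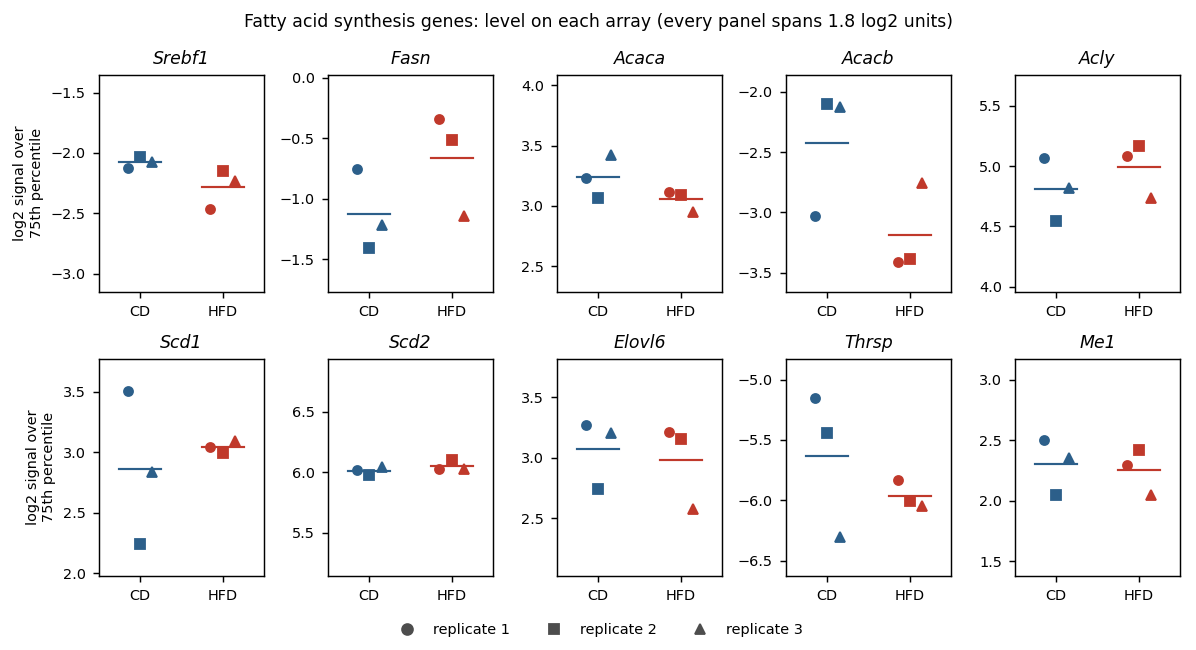
Level of the 10 genes on each array by the brightest probe (log2 signal over the 75th percentile; blue CD, red HFD; symbols are replicates 1 to 3, bars the mean of 3), each panel spanning the same 1.8 log2 units. Srebf1 alone has diets that do not overlap, Acacb and Fasn show the widest gaps between means, and Scd2 is nearly level over all arrays.

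The elongase and the desaturases showed no difference past the test. Elovl6 (NM_130450), which takes palmitate to stearate, read 3.22, 3.15 and 2.57 on HFD and 3.27, 2.75 and 3.21 on CD. One array of each diet, HFD replicate 3 and CD replicate 2, was low and the other 4 lay between 3.15 and 3.27. Its difference was -0.09 ± 0.23 (SE, 95% interval -0.65 to 0.47), and without HFD replicate 3 it was 0.11. Scd1 (NM_009127), the main desaturase of liver and fat, read 3.04, 2.99 and 3.09 on HFD and 3.50, 2.24 and 2.83 on CD. The HFD arrays agreed to within 0.10, and the CD arrays spanned 1.26 around them. The difference was 0.18 ± 0.31 (SE, 95% interval -0.56 to 0.92; limma adjusted p = 0.786), it was -0.13 without CD replicate 2, and on slide 2 it was -0.46. Scd2 (NM_009128), the desaturase prominent in brain and in developing tissue, read 6.03, 6.10 and 6.02 on HFD and 6.01, 5.98 and 6.04 on CD. All 6 values lay between 5.98 and 6.10, and its interval, 0.04 with bounds of -0.22 and 0.30, was the narrowest of the 16.

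The sign of several members depended on the slide or on 1 array. Of the 16 within-slide differences, 4 were above 0 and 12 below, from -0.87 for Thrsp to 0.16 for the dimmer Acacb probe, and 6 had the opposite sign to the 6-array value. All of them set HFD replicates 2 and 3 against CD replicate 1, the only CD array on that slide. The slide and that 1 mouse therefore cannot be told apart. The share below 0 over all probes was not counted, and with slide as a block the median of all genes was 0.03. Leaving out HFD replicate 3 gave 7 of 16 probes whose diets did not overlap, against 42.6% of all probes: Fasn, both Acly probes, 1 Acaca and 1 Me1 probe higher, Srebf1 and 1 Acacb probe lower. Without CD replicate 1 it was 5 of 16, against 47.5% of all probes. Without HFD replicates 1 or 2 it was 1 of 16 (23% and 24.8% of all probes), without CD replicate 2 it was 2 (24.7%) and without CD replicate 3 it was 3 (20%). The median over the 10 genes was 0.05 without HFD replicate 3 and 0.02 without CD replicate 1, and negative in the other 4 cases. With arrays weighted by their agreement with the fit, 2 of 16 probes passed an adjusted p of 0.05, Fasn at 0.68 (adjusted p = 0.039) and the brighter Acacb probe at -1.13 (adjusted p = 0.026), but so did 24.2% of all probes.

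Across the 6 arrays the members did not move as 1 block. Centred on each gene's own mean, 8 of the 10 genes stood above it on CD replicate 1 and 7 on HFD replicate 2, but 2 on HFD replicate 3 and 3 on CD replicate 2. Fasn, Acly, Me1 and Elovl6 were above their means on HFD replicates 1 and 2 and CD replicate 1, and below on HFD replicate 3 and CD replicate 2. The closest pairs by root-mean-square difference of these centred levels were Elovl6 with Me1 (0.124) and Acly with Me1 (0.125). The farthest pair was Fasn with Acacb, at 0.908. Acacb, Srebf1 and Thrsp each followed another course. Acacb was lowest on HFD replicates 1 and 2, Srebf1 on HFD replicate 1, and Thrsp on CD replicate 3.

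**Figure D4:**
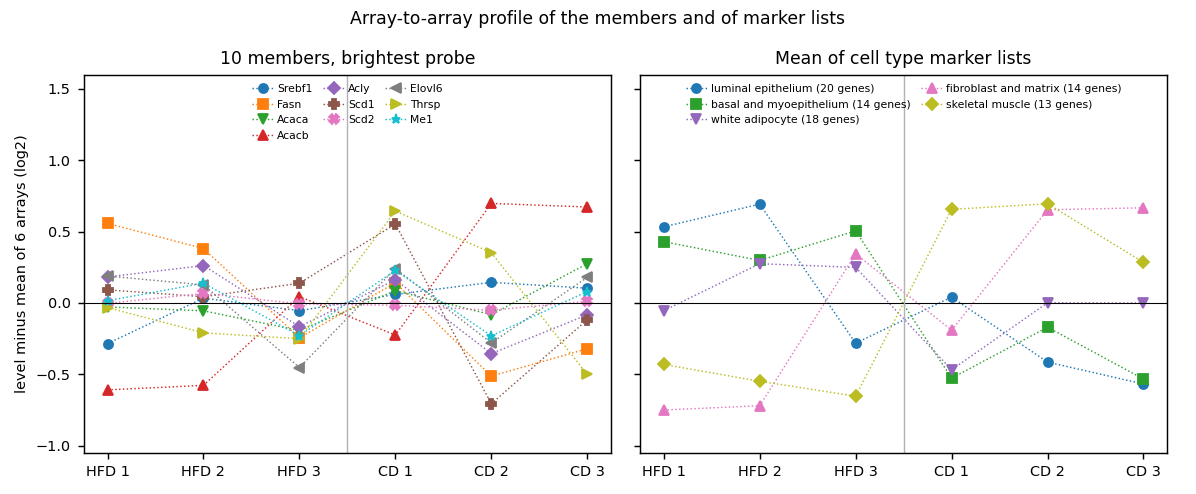
Left, level of each of the 10 genes minus its own mean over the 6 arrays (log2, brightest probe); right, the mean of 5 cell type marker lists treated in the same way. Dotted lines only connect points of 1 gene or list, and the vertical line parts HFD from CD. Fasn and Acacb stand on opposite sides of their own means on all 6 arrays.

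Genes with a course like that of Fasn or Scd1 were sought among 10477 named genes whose level varied by at least 0.5 over the 6 arrays. The 5 closest to Fasn were Wdr12 (root-mean-square difference 0.024), Mthfd1 (0.030), Ide (0.036), Sephs2 (0.036) and Prpf19 (0.041), where the median candidate stood at 0.546. Mthfd1, an enzyme of one-carbon metabolism, read 2.79, 2.66 and 2.00 on HFD and 2.45, 1.74 and 1.98 on CD. For Scd1 the closest were Naif1 (0.067), Tinagl1 (0.075), Ttc41 (0.093), Socs5 (0.105) and Ero1b (0.127), against a median of 0.535. Naif1 and Ttc41 were dim, at -7.41 to -6.31 and -6.59 to -5.42, where Scd1 read 2.24 to 3.50. With 6 arrays and so many candidates these are descriptions of likeness only.

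The rest of the pathway was described from 6 lists, none of which held a gene past an adjusted p of 0.05 in limma, where 0.0171% of all genes passed. Of 16 genes that control lipogenesis, 8 differences were above 0 and 8 below (median -0.05), and 2 had an unadjusted p under 0.05 on the lower side and 0 on the higher, beside 7.5% and 5.89% of all genes. Scap, which escorts SREBP from the endoplasmic reticulum for cleavage, read 3.29, 3.13 and 3.04 on HFD and 3.71, 3.45 and 3.84 on CD. All 3 HFD arrays lay below all 3 CD arrays, with a difference of -0.51 ± 0.15 (SE; unadjusted p = 0.014, limma adjusted p = 0.301). Mid1ip1, a relative of Thrsp that activates acetyl-CoA carboxylase, differed by -0.31 ± 0.12 with the same order (limma adjusted p = 0.359). Of all 23460 genes, 2052 had every HFD array below every CD array. Mbtps2, the site-2 protease of SREBP, differed by 0.51 ± 0.25, with overlapping diets. Fbxw7, the ubiquitin ligase subunit that targets nuclear SREBP, differed by 0.35 ± 0.15. For Fbxw7 every HFD array lay above every CD array, as for 1978 of all 23460 genes. Neither gene had an unadjusted p under 0.05. On slide 2 the Mbtps2 difference was 0.01.

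Of 15 genes for citrate, acetyl-CoA and NADPH supply, 9 were above 0 and 6 below (median 0.12). At an unadjusted p under 0.05 there were 3 on the higher side and 2 on the lower, beside 5.89% and 7.5% of all genes. Pcx, pyruvate carboxylase, which refills oxaloacetate, read -0.89, -1.01 and -0.38 on HFD and 0.37, -0.18 and 0.19 on CD, a difference of -0.89 ± 0.23 (SE; limma adjusted p = 0.261). Slc2a4, the insulin-regulated glucose carrier of muscle and fat, differed by 0.94 ± 0.33 (limma adjusted p = 0.339). For both genes the diets did not overlap, as for 1978 of all 23460 genes on the higher side and 2052 on the lower. Me3, a mitochondrial malic enzyme, differed by 0.48 ± 0.13 and Dlat, a subunit of pyruvate dehydrogenase, by 0.45 ± 0.15. Pklr, the pyruvate kinase of liver, differed by -1.09 ± 0.27 but was dim, with levels of -6.68 to -5.94 on HFD, and its difference was 0.49 with normexp and 75th-percentile scaling but -0.26 with normexp and quantile normalization.

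The 10 genes of malonyl-CoA control held 4 above 0 and 6 below (median -0.03). Btd alone had an unadjusted p under 0.05, on the lower side, where 7.5% of all genes passed. Btd, the enzyme that recovers the carboxylases' cofactor biotin, differed by -0.84 ± 0.28 (SE; limma adjusted p = 0.329), with overlapping diets. Mlycd, which breaks malonyl-CoA down, differed by -0.42 ± 0.24, but by 0.17 on slide 2. The AMP-activated kinase subunit Prkag2 and the upstream kinase Stk11 (LKB1) differed by 0.10 ± 0.12 and 0.09 ± 0.14. Apart from Btd and Mlycd, the 8 genes of this list had differences of less than 0.10 in size by their brightest probes. A second Hlcs probe gave 0.18, where the brightest gave -0.04.

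The elongation and desaturation partners were the list with the most genes on 1 side. Of 17 tested, 14 were above 0 and 3 below (median 0.17), where 48.9% of all genes were above; Elovl2 and Elovl3 were too dim to test. At an unadjusted p under 0.05 there were 3 higher and 1 lower, beside 5.89% and 7.5% of all genes. The lower one was Cyb5a, the electron donor of desaturases, at -0.36 ± 0.14. Elovl7, an elongase of saturated very long chains, read 1.85, 2.02 and 1.68 on HFD and 1.42, 1.55 and 0.96 on CD, a difference of 0.54 ± 0.19 (SE; limma adjusted p = 0.342). Hacd2, the dehydratase of the elongation cycle, differed by 0.49 ± 0.17 and Fads2, the delta-6 desaturase, by 0.30 ± 0.11. For Elovl7, Hacd2 and Fads2 every HFD array was above every CD array, as for 1978 of all 23460 genes. With slide as a block the median of the list was 0.0018.

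Of 22 genes for fatty acid uptake, activation and triglyceride assembly, 11 were above 0 and 11 below (median 0.01). On each side 1 passed an unadjusted p of 0.05, beside 5.89% of all genes on the higher and 7.5% on the lower. These were Acsl5, an acyl-CoA synthetase, at 0.50 ± 0.20, and Slc27a4, a fatty acid transporter, at -0.46 ± 0.18. Lpin1, a phosphatidate phosphatase, differed by 0.42 ± 0.18 and Dgat2, the last enzyme of triglyceride synthesis, by -0.28 ± 0.13. The 8 genes of mammary and mitochondrial synthesis had 6 above 0 and 2 below (median 0.23). At an unadjusted p under 0.05 there was 1 on the higher side, Lipt1, and 0 on the lower, beside 5.89% and 7.5% of all genes. Lipt1 and Lias, which attach and build lipoic acid, differed by 0.56 ± 0.19 and 0.28 ± 0.12, and Mecr, the reductase of mitochondrial fatty acid synthesis, by 0.40 ± 0.21.

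Olah, the thioesterase that frees medium-chain fatty acids from Fasn in milk-producing epithelium, rested on 1 array. It read -6.21, -6.39 and -1.72 on HFD and -6.09, -6.51 and -6.24 on CD. HFD replicate 3 stood 20.6-fold above the next array, on a probe with 1 spot, and the other 5 arrays lay between -6.51 and -6.09. Its difference was 1.51 ± 1.22 (SE; limma adjusted p = 0.565), and without HFD replicate 3 it was -0.02. The deposited table of values held the same reading, at -1.72 on the log2 scale.

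**Figure D5:**
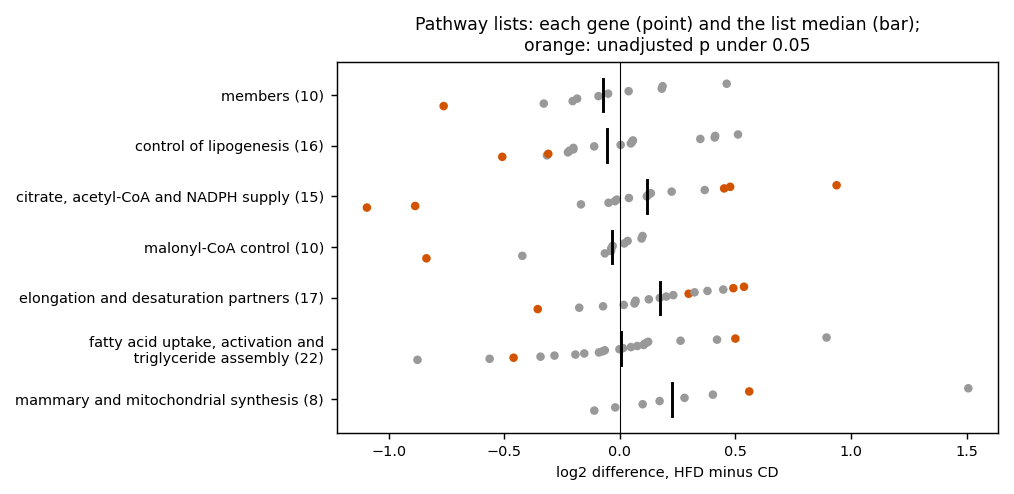
Difference (HFD minus CD, log2) of each gene in the 10 members and in 6 other pathway lists, with a bar at the median of the list and orange for an unadjusted p under 0.05. The medians lie between -0.07 for the members and 0.23 for mammary and mitochondrial synthesis, and the single point at 1.51 is Olah.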

How the data were processed

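Each mouse's gland RNA was labelled with Cy3 and hybridised to 1 single-colour Agilent mouse array. Per the file headers and the submitters' processing notes, the authors used Agilent Feature Extraction 11.0.1.1. The deposited processed signal is a linear intensity after background subtraction. The deposited table of values was used as an alternative; it is that intensity divided by the array's 75th percentile, neither logged nor centred, with column medians from 0.134 to 0.140.

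Control and outlier spots were removed and repeat spots averaged. Of 39429 probes, 111 that lacked usable spots on some array were dropped, and log2 intensity was taken relative to the array's 75th percentile. To be kept, a probe had to be well above background on 3 or more of the 6 arrays (28689 were). Probes were named through RefSeq accessions, 27427 by 1 symbol; a gene's value in a list is that of its brightest probe. The fit used limma 3.58.1 (R 4.3.3) with moderated two-sided tests, no covariates and Benjamini-Hochberg adjustment, at a threshold of 0.05. Scripts were tested on simulated data. The number of arrays limits the precision.

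The members, lists and tests were chosen with earlier results of these data known. Each pathway list's 4 genes of smallest p, and up to 6 at an unadjusted p under 0.05, were named. Of cell type lists the rule took Adipoq, Lep, Plin1 and the 3 genes of highest level. It was followed for the white adipocyte list, and the 3 genes of highest level in the other cell type lists were mostly left unnamed. The other single genes named from cell type lists were chosen after their values were seen. Alternatives covered scaling, background, filter, probe choice, variance, array weights, slide, replicate number, marker covariates and leaving out each array.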

Additional observations from a re-analysis of the deposited data

How the results depend on the processing

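Across 21 alternatives, the count of member probes past an adjusted p of 0.05 stayed at 0 in 20 and was 2 with array weights, where 6946 of all probes passed and CD replicate 3 had a weight of 4.16. The count of member probes at an unadjusted p under 0.05 was 1, where 13.7% of all 28689 probes passed. It was 0 with either normexp background (75th percentile or quantile), with no filter, with slide as a block and with the luminal covariate. With array weights it was 3, where 12185 of the 28689 probes passed, and with the white adipocyte covariate 4, where 8003 passed. Leaving out 1 array gave 0 to 2, where 1713 to 6884 of all probes passed. Member probes with diets that did not overlap (1) numbered 1 to 7 when 1 array was left out, beside 20% to 47.5% of all probes. The cause of these changes was not tested. Low signal limits Thrsp and the dimmer Acacb probe most, the latter not well above background on HFD replicate 2.

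Signs of single probes changed as follows. After normexp with 75th-percentile scaling, Srebf1 was 0.11, the dimmer Acacb probe 0.79, Scd2 -0.12 and Thrsp 0.64, while the median of all genes was 0.27. With slide as a block Fasn was -0.073, the dimmer Acacb probe 0.16, the Acly probes -0.11 and -0.050, Scd1 -0.46 and the dimmest Me1 probe -0.23. With the luminal covariate Fasn was -0.038, the second Acaca probe -0.0097, the dimmer Acacb probe 0.11, the Acly probes -0.11 and -0.21, Scd1 -0.030 and the dimmest Me1 probe -0.17. With the white adipocyte covariate Elovl6 was 0.24, Thrsp 0.15 and the brighter Me1 probes 0.19 and 0.23. With array weights Thrsp was 0.11 and those Me1 probes 0.017 and 0.059. Leaving out 1 array turned the sign of the dimmer Acacb probe (-0.39 to 0.0027), the second Acly probe (-0.025 to 0.27), Elovl6 (-0.26 to 0.11), Me1 (-0.18 to 0.051 and -0.17 to 0.10 for its brighter probes) and Scd1 (-0.13 to 0.50).

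The median over the 10 genes was 0.17 with the white adipocyte covariate and -0.18 to 0.051 with 1 array left out. The list medians moved beyond the replicate spread as follows: control of lipogenesis to 0.0069 (normexp, 75th percentile), -0.24 (white adipocyte covariate), -0.10 (deposited table) and -0.14 to -0.0076 (1 array left out); citrate, acetyl-CoA and NADPH supply to -0.049 (slide), 0.31 (white adipocyte) and -0.086 (luminal), and 0.023 to 0.19; elongation and desaturation partners to 0.060 (normexp) and 0.0018 (slide), and 0.070 to 0.19; uptake and triglyceride assembly to -0.078 (slide), and -0.061 to 0.10. That of mammary and mitochondrial synthesis was 0.0077 (slide), 0.41 (white adipocyte) and -0.025 (luminal), and that of the white adipocyte list 0.74 (normexp). The malonyl-CoA control median stayed within the replicate spread under all 21 alternatives, from -0.11 to 0.069, and the brightest Acaca probe kept its sign in all 21.

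Over all probes, the 5 past an adjusted p of 0.05 became 8 with arrays centred on the median or normexp and quantile, 0 with normexp and the 75th percentile, no filter, slide, either covariate or the replicate block, and 0 to 122 with 1 array left out, 122 being without HFD replicate 3. The 3938 at an unadjusted p under 0.05 became 1298 (normexp, 75th percentile), 12185 (array weights), 1489 (slide), 8003 (white adipocyte) and 1990 (luminal), and 1713 to 6884 with 1 array left out. Same-numbered arrays had deviations that correlated at 0.34, -0.14 and 0.25, so the numbers were not taken as pairs; with the replicate block the Fasn difference was 0.46 (adjusted p = 0.318) and no member passed.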

Other observations

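Several milk genes were detected on single arrays. Csn1s1, an alpha casein, read -4.81 on HFD replicate 1 and between -9.60 and -6.88 on the other 5, and was well above background on that array only. Glycam1 read -6.05 on HFD replicate 2 and between -9.76 and -9.29 elsewhere. Of the 2 Wap probes, one was well above background only on CD replicate 2 (-4.66) and the other only on HFD replicate 1 (-6.96).

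Among white adipocyte markers, 3 genes picked after their values were seen did not share a direction. Cfd (adipsin) read -3.44, -3.22 and -3.02 on HFD and -5.60, -4.71 and -4.70 on CD (difference 1.78, limma adjusted p = 0.128), and Car3 differed by 1.40 (limma adjusted p = 0.352). Pparg, the nuclear receptor of fat cell differentiation, read -2.58, -2.09 and -1.97 on HFD and -1.48, -1.13 and -0.76 on CD (difference -1.09, limma adjusted p = 0.229). For Cfd and Pparg the diets did not overlap, in opposite directions, as for 1978 of all 23460 genes on the higher side and 2052 on the lower.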
